A study of Rattus norvegicus with 12 samples.

Results

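Detoxification and antioxidant enzymes are represented in these rat cardiomyocytes by 211 gene names, chosen by symbol alone: the epoxide hydrolases (Ephx), cytochromes P450 (Cyp), aldehyde dehydrogenases (Aldh), aldo-keto reductases (Akr), quinone oxidoreductases (Nqo), glutathione S-transferases (Gst and Mgst), UDP-glucuronosyltransferases (Ugt), sulfotransferases (Sult), the subunits of glutamate-cysteine ligase (Gclc and Gclm), glutathione peroxidases (Gpx), superoxide dismutases (Sod), catalase (Cat), peroxiredoxins (Prdx), sulfiredoxin (Srxn1), and all genes whose symbol starts with Txn. They take 224 of the 18752 transcript rows and 211 of the 17301 gene names. Adult rat ventricular myocytes (ARVMs), freshly isolated from the hearts of male Sprague-Dawley rats and kept in culture, were transduced at 50 MOI with Ad-GFP, an adenovirus that encodes enhanced GFP and serves as the control, or with Ad-h-NR4A2, which encodes full-length human NR4A2, an orphan nuclear receptor, under a CMV promoter. RNA was collected 48 h later from 6 samples per group, numbered 24 to 29 in both. Both groups thus carried an adenovirus, and NR4A2 was driven by a viral promoter. The comparison asks how NR4A2 overexpression changes the transcriptome, here the enzymes that modify, conjugate, and reduce reactive compounds.

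Detoxification runs in steps. Cytochromes P450, epoxide hydrolases, aldehyde dehydrogenases, and reductases oxidize, hydrolyze, or reduce a compound, and transferases then couple it to glutathione, glucuronic acid, or sulfate. Superoxide dismutases turn superoxide into hydrogen peroxide, which catalase, glutathione peroxidases, and peroxiredoxins remove, the last with electrons from thioredoxin. In the heart, whose mitochondria produce reactive oxygen species steadily, these peroxide-removing enzymes are abundant, while many P450s and sulfotransferases belong mainly to the liver. Many of the genes carry antioxidant response elements in their regulatory DNA, bound by the transcription factor NRF2 (gene Nfe2l2).

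The depth implied by the values was 18800000 to 28000000 fragments in Ad-GFP samples and 21600000 to 27300000 in Ad-h-NR4A2 samples. Nr4a2 had 0.626 to 1.40 FPKM in Ad-GFP samples and 445 to 592 in Ad-h-NR4A2 samples, on a rat transcript to which fragments of the human cDNA can also align. The 6 cardiomyocyte markers summed to 17688 to 22842 FPKM in Ad-GFP samples and 15658 to 19261 in Ad-h-NR4A2 samples, with Myh7 and Ryr2 downregulated. Myh6 and Tnnt2 were also lower without overlap of the groups, by less than 1.5-fold (log2 fold changes -0.56 and -0.26). Tnni3 and Actc1 overlapped between the groups. The 8 fibroblast markers summed to 9.12 to 30.4 and 5.84 to 27.1 FPKM, with Col3a1 downregulated and Col1a2 at 0. Endothelial markers (7 genes) summed to 9.16 to 26.3 and 10.4 to 27.9 FPKM, with Egfl7 upregulated, and smooth muscle markers (5 genes) to 10.7 to 23.4 and 8.27 to 18.8 FPKM, with Myh11 downregulated. The 8 macrophage and blood markers summed to 7.21 to 18.4 FPKM in Ad-GFP samples and 39.3 to 50.9 in Ad-h-NR4A2 samples, mostly from Csf1r, which averaged 10.1 and 40.2 FPKM. Cd14 was also upregulated, whereas Cd68 averaged 0.463 and 0.482 FPKM and Adgre1 0.322 and 0.275. The part of cell composition in the results was not tested, and in bulk RNA fewer cells of a type and less RNA per cell cannot be told apart.

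Single enzymes of several families were differentially expressed after NR4A2 overexpression, some higher and some lower. Of the 211 genes, 112 were above 0 in all 12 samples and were tested, and 38 were listed at 0 in all of them. A gene was taken as upregulated or downregulated when its adjusted p was below 0.05 in limma, fitted on log2(FPKM + 0.1) over all 10950 testable genes with Benjamini-Hochberg adjustment, and its group means differed at least 1.5-fold. By this rule 20 of the 112 (17.9%) were differentially expressed, against 15.2% of all tested genes. Upregulated were 8 (7.14%, against 7.94% of all tested genes) and downregulated 12 (10.7%, against 7.24%). Without the fold limit, 49 (43.8%) passed, 22 higher and 27 lower with Ad-h-NR4A2, against 40.9% of all tested genes. When same-numbered samples were paired by a replicate block, an alternative added after seeing the data, 70 (62.5%) passed without the fold limit, 25 higher and 45 lower, against 59.4% of all tested genes, so that small differences described as not passing are those of the unpaired fit. The lowest value of one group exceeded the highest of the other in 18 of the 112 (16.1%), against 21.5%, and 10 of these 18 were among the 20. The median log2 fold change was -0.07 in the 112 genes and -0.02 in all tested genes. The shares lie near the background, with downregulated genes somewhat more frequent and genes without overlap less frequent, and these differences were not tested.

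**Figure D1:**
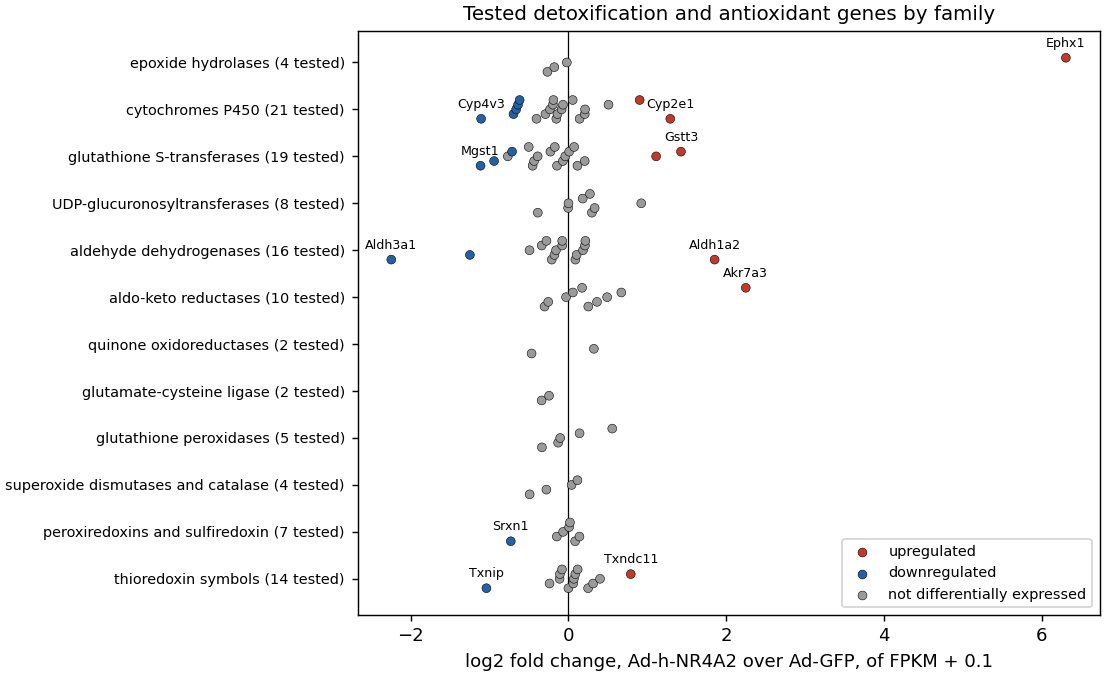
Log2 fold change of FPKM + 0.1 (Ad-h-NR4A2 over Ad-GFP, horizontal axis) of each of the 112 tested genes, 1 point per gene, in rows by family, with red for upregulated, blue for downregulated, and gray for genes that were not differentially expressed. Points lie on both sides of 0 in most families. Ephx1, at 6.30 by its transcript row with the higher mean, stands alone on the right.

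Ephx1 encodes microsomal epoxide hydrolase, which turns reactive epoxides of drugs, hydrocarbons, and lipids into diols. By its row with the higher mean, NM_012844, it had the largest log2 fold change of the 112 genes. As the values are divided between its 2 transcript rows, most of the change lay in that 1. Both rows lie at the same locus (Rn5 chr13:104268704-104297617) and are listed with different transcription start sites, NM_012844 with 1761 nucleotides and NM_001034090 with 1732. NM_012844 ranged from 2.75e-05 to 0.700 FPKM (median 0.239) in Ad-GFP samples and from 12.5 to 42.4 FPKM (median 21.9) in Ad-h-NR4A2 samples. The values of Ad-GFP samples 26 and 27, at 2.75e-05 and 5.25e-05 FPKM, are far below 1 fragment. This row thus passed the filter of values above 0 in name only, and its log2 fold change depends on the pseudocount. Every Ad-h-NR4A2 sample was far above every Ad-GFP sample, with samples 24 and 28 the highest. On the log2 scale the rise was 6.30 (SE 0.57, adjusted p = 4.39e-06 in limma over all transcript rows), and the exact permutation p was 0.00216, the smallest that 6 against 6 samples allow. NM_001034090 ranged from 4.28 to 12.1 FPKM (median 6.98) in Ad-GFP samples and from 6.28 to 13.4 FPKM (median 8.78) in Ad-h-NR4A2 samples. The groups thus overlapped between 6.28 and 12.1 FPKM. For this row the log2 fold change was 0.36 (SE 0.27, 95% interval -0.22 to 0.94, adjusted p = 0.319 in limma, but 0.0501 with the block), and 5 of 6 pairs were higher with Ad-h-NR4A2.

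Cufflinks divides the fragments of shared exons between rows of 1 locus, and how it did so here was not tested, so the sum of both rows is the firmer value. The sum ranged from 4.50 to 12.4 FPKM (median 7.32) with Ad-GFP and from 18.8 to 53.9 FPKM (median 31.5) with Ad-h-NR4A2, again without overlap. It rose 4.57-fold (log2 fold change 2.16, SE 0.30, adjusted p = 7.55e-05 in limma), in 6 of 6 pairs. By this sum, the log2 fold change of Ephx1 was below the 2.25 of Akr7a3. The share of the sum in NM_012844 was 3.72% ± 3.58 in the Ad-GFP group and 72.2% ± 5.27 in the Ad-h-NR4A2 group (SD, n = 6 each), a share computed after seeing the data. The lowest share with Ad-h-NR4A2 was 66.6% and the highest with Ad-GFP 8.38%. Total Ephx1 was higher in samples 24 and 28 than in the other 4 of the same group, with either virus. Of the 112 genes as tested, 9 (8.04%) showed that order, against 8.89% of all tested genes.

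**Figure D2:**
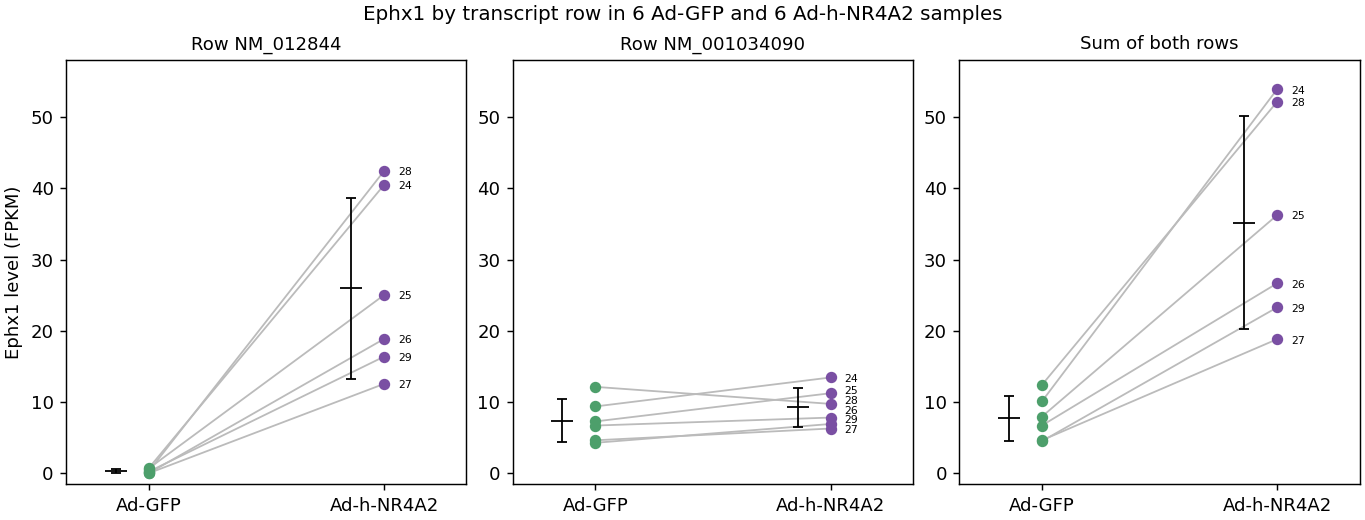
FPKM of the Ephx1 transcript row NM_012844 (left), of NM_001034090 (middle), and of their sum (right), with 1 point per sample, gray lines between same-numbered samples, the sample number beside the Ad-h-NR4A2 points, and black bars for the mean ± SD of 6 samples. The left panel goes from at most 0.700 FPKM to at least 12.5, whereas in the middle panel the groups overlap between 6.28 and 12.1 FPKM.

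The promoters of Ephx1 are shown because its rows differ by start site. RefSeq lists 2 Ephx1 starts on the minus strand of rat chromosome 13 in GRCr8, a later build than that of the files, and the table does not pair these starts with the transcript rows. Each sequence gives the 250 bases before the start, and Gpx2 is added as the other gene of the families that holds both motifs searched. Capitals mark AAAGGTCA, the NGFI-B response element that NR4A receptors bind as monomers, and TGACNNNGC, the core of the antioxidant response element, on either strand.
Ephx1, GRCr8 chr13:95275853-95276102, minus strand: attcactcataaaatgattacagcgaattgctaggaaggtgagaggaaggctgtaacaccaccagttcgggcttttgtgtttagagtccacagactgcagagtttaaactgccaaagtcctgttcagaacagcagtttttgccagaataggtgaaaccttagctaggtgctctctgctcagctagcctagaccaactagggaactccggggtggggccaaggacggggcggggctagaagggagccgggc
Ephx1, GRCr8 chr13:95263118-95263367, minus strand: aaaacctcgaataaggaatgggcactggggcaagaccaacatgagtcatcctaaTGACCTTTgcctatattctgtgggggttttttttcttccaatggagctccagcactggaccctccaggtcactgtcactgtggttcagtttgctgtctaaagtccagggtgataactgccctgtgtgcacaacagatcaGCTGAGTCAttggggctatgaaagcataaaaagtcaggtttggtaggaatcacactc
Gpx2, GRCr8 chr6:101230034-101230283, minus strand: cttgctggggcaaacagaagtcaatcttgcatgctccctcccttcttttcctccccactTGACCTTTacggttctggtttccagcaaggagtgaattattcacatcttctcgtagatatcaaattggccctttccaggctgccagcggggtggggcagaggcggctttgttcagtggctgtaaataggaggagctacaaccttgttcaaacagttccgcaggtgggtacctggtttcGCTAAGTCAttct
The first Ephx1 window holds neither motif. The second holds TGACCTTT, the reverse complement of the NGFI-B response element, from 196 to 189 bases before the start, and GCTGAGTCA, an antioxidant response element core on the opposite strand, from 57 to 49 bases before it. In Gpx2, TGACCTTT lies 191 to 184 and GCTAAGTCA 13 to 5 bases before the start. The core was found in 10.1% and the NGFI-B response element in 1.24% of all 33469 promoter windows, and both in 0.114%. Among the families, 172 of 211 gene names matched the table, with 182 windows, of which 11.5% held the core, 4.95% the NGFI-B response element, and 1.10% both. For the differentially expressed genes, 16 of 20 matched, with 17 windows, and 4 held the core, namely Ephx1, Aldh1a2, Txndc11, and Cyp4b1. The NGFI-B response element was found in 1 of these 16, Ephx1. These matches are letters in a window, and binding was not measured.

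The other epoxide hydrolases did not follow Ephx1. Ephx2, the soluble enzyme that hydrolyzes epoxides of arachidonic acid, had 6.18 ± 0.892 and 6.08 ± 0.746 FPKM in Ad-GFP and Ad-h-NR4A2 samples (SD, n = 6), and its log2 fold change of -0.02 had a 95% interval of -0.26 to 0.21. Ephx3 and Ephx4 stayed near 0.1 FPKM in both groups, and neither was differentially expressed.

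Akr7a3 and Aldh1a2 were the next largest rises after Ephx1 as tested, by its transcript row with the higher mean. Akr7a3 (Rn5 chr5:161540977-161553466), an aldo-keto reductase known for reducing aflatoxin dialdehyde, ranged from 1.41 to 2.78 FPKM (median 1.86) in Ad-GFP samples and from 6.86 to 13.4 FPKM (median 8.93) in Ad-h-NR4A2 samples. The groups were clearly apart, and the mean was 4.97 times higher (log2 fold change 2.25, SE 0.19, adjusted p = 7.46e-07 in limma). Aldh1a2 (Rn5 chr8:75363285-75442554), which makes retinoic acid from retinaldehyde, ranged from 0.493 to 1.11 FPKM (median 0.812) and from 2.65 to 4.41 FPKM (median 3.14). Here too no sample of one group entered the range of the other, and the mean rose 3.87-fold (log2 fold change 1.85, SE 0.17, adjusted p = 1.88e-06).

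Aldh3a1 and Aldh3b1, of the same family as Aldh1a2, moved the other way at low levels. Aldh3a1 (Rn5 chr10:47265007-47274692), which oxidizes aromatic and medium-chain aldehydes, ranged from 0.254 to 2.50 FPKM (median 0.954) in Ad-GFP samples and from 0.0295 to 0.292 FPKM (median 0.0977) in Ad-h-NR4A2 samples. With the pseudocount of 0.1 it had the largest fall of the families, at -2.25 on the log2 scale (SE 0.43, adjusted p = 8.7e-04 in limma), but with a pseudocount of 1 the fall was -0.84, less than that of Mgst1 (-1.10). The groups touch, since 1 Ad-GFP sample lay within the Ad-h-NR4A2 range. The fall rests on 10 to 109 fragments against 1 to 11. Aldh3b1, which acts on aldehydes from lipid peroxidation, had 0.427 to 0.755 FPKM (median 0.599) against 0.043 to 0.327 FPKM (median 0.218), so the groups did not overlap (log2 fold change -1.25, SE 0.24, adjusted p = 8.57e-04). The more abundant Aldh2 and Aldh1a1 differed less. Aldh2, the mitochondrial enzyme that clears acetaldehyde and lipid aldehydes, had 440 ± 31.9 and 363 ± 32.0 FPKM (SD, n = 6) and was lower in 6 of 6 pairs, below the fold limit (log2 fold change -0.28, adjusted p = 0.00317). Aldh1a1, which also oxidizes retinaldehyde, had 23.7 ± 7.47 and 19.1 ± 7.38 FPKM (SD, n = 6), which overlapped widely (adjusted p = 0.327), although it was lower in 6 of 6 pairs and passed with the block (adjusted p = 4.51e-04). In all, 16 of 19 Aldh genes were tested, 1 rose, 2 fell, and 13 were not differentially expressed. Among all tested genes, 7.94% rose and 7.24% fell.

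Of 10 tested aldo-keto reductases, 4 were higher and 1 lower when the fold limit is left out, against 40.9% of all tested genes in either direction, and the median log2 fold change was 0.21. Only Akr7a3 passed the test with at least a 1.5-fold difference. Akr1cl, at 549 ± 37.2 and 705 ± 32.4 FPKM (SD, n = 6), was higher in every pair and did not overlap (log2 fold change 0.36, adjusted p = 6.27e-05 in limma), while Akr1b10 was lower (8.51 ± 0.638 and 6.87 ± 0.312 FPKM, adjusted p = 0.00182). Akr1b1, the aldose reductase that makes sorbitol from glucose, stood at 584 ± 26.2 and 572 ± 21.2 FPKM (log2 fold change -0.03, 95% interval -0.12 to 0.05). Akr1b8 varied between 3.73 and 16.5 FPKM over the 12 samples and did not pass the unpaired test (adjusted p = 0.534, but 0.0199 with the block). The 2 quinone oxidoreductases moved in opposite directions below the fold limit. Nqo1, a classic NRF2 target, had 199 to 323 FPKM (median 255) and 148 to 232 FPKM (median 184), lower in 6 of 6 pairs (log2 fold change -0.47, SE 0.13, adjusted p = 0.0107), and Nqo2 had 52.7 to 68.2 FPKM (median 58.5) and 59.5 to 81.1 FPKM (median 75.3), higher in 6 of 6 (log2 fold change 0.32, adjusted p = 0.00587).

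Cytochromes P450 were mostly at the edge of detection. Of 74 genes, 21 were tested, 22 were listed at 0 in all samples, and the highest mean was that of Cyp51, at 57.6 FPKM over the 12 samples. Among the 21, 2 rose and 5 fell, against 7.94% and 7.24% of all tested genes. Cyp51 (Rn5 chr4:27078790-27097242), the lanosterol demethylase of cholesterol synthesis, had 62.5 to 84.9 FPKM (median 69.1) in Ad-GFP samples and 40.5 to 46.9 FPKM (median 44.4) in Ad-h-NR4A2 samples. The groups were apart in all samples, and the fall was -0.70 on the log2 scale (SE 0.07, adjusted p = 4.61e-06 in limma). Cyp4v3 (Rn5 chr16:49834760-49859698), a fatty acid hydroxylase, had 6.78 to 9.14 FPKM (median 8.62) against 2.86 to 4.19 FPKM (median 3.98), also without overlap (log2 fold change -1.11, SE 0.10, adjusted p = 2e-06). Both fell in 6 of 6 pairs. Smaller falls were seen in Cyp39a1, an oxysterol hydroxylase (1.38 to 2.55 against 0.994 to 1.37 FPKM, log2 fold change -0.66, adjusted p = 0.0033), in Cyp2j4, of a subfamily that epoxidizes arachidonic acid (1.01 to 1.90 against 0.675 to 1.15 FPKM, log2 fold change -0.62, adjusted p = 0.00721), and in Cyp4f1, of a subfamily of fatty acid hydroxylases (0.654 to 1.27 against 0.338 to 0.722 FPKM, log2 fold change -0.64, adjusted p = 0.0226). Cyp39a1 did not overlap, by a narrow gap, and the other two did. Without Ad-h-NR4A2 sample 26, Cyp2j4 was under the fold limit, and Cyp4f1 lost its call without Ad-GFP sample 24 or 25 or Ad-h-NR4A2 sample 25 or 29 (adjusted p 0.0502 to 0.0526).

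Both P450s that rose did so from low levels. Cyp2e1 (Rn5 chr1:220406342-220416726), which oxidizes ethanol and other small molecules, had 0.221 to 0.783 FPKM (median 0.362) with Ad-GFP and 0.766 to 1.55 FPKM (median 1.09) with Ad-h-NR4A2, from 6 to 31 and 24 to 49 fragments. Its groups overlapped only through Ad-GFP sample 28, and it rose in 6 of 6 pairs (log2 fold change 1.29, SE 0.22, adjusted p = 3.99e-04 in limma). Cyp4b1 had 1 to 5 fragments against 2 to 19, and rose in 5 of 6 pairs (log2 fold change 0.90, adjusted p = 0.00985). Cyp1b1, a P450 that is induced through the aryl hydrocarbon receptor, had 0.270 ± 0.123 and 0.223 ± 0.0751 FPKM (SD, n = 6), and Cyp2j3, an epoxygenase described in rat heart, 0.151 ± 0.0792 and 0.190 ± 0.0850 FPKM. Neither was differentially expressed (adjusted p = 0.668 and 0.532), at a level where a 95% interval spans -0.71 to 0.40 for Cyp1b1.

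**Figure D3:**
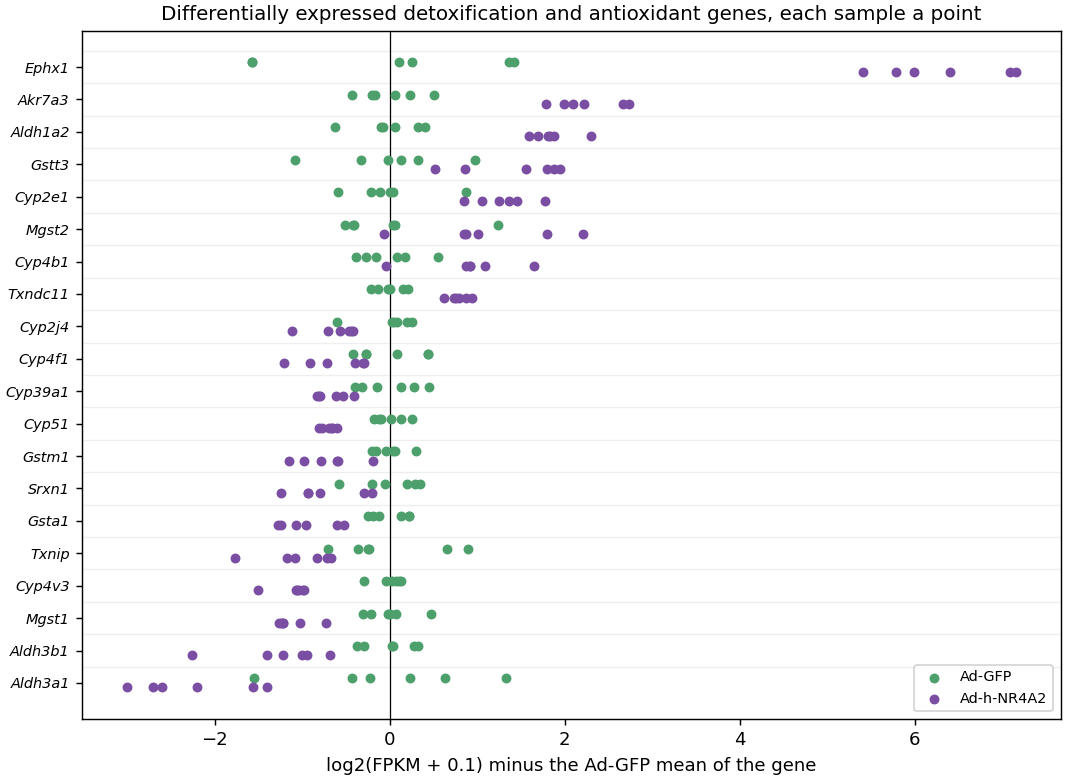
Log2(FPKM + 0.1) of each sample minus the Ad-GFP mean of its gene (horizontal axis), for the 20 differentially expressed genes, with green points for the 6 Ad-GFP samples and purple points for the 6 Ad-h-NR4A2 samples. The groups do not overlap in 10 genes, such as Akr7a3, Txndc11, Cyp51, and Mgst1, while in Mgst2, Txnip, and Srxn1 they overlap.

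Glutathione S-transferases couple glutathione to electrophiles, and among them Mgst1 and Gsta1 fell clearly. Of the 25, 19 were tested, with 2 up and 3 down, against 7.94% and 7.24% of all tested genes. Their median log2 fold change was -0.17. Leaving out the fold limit, 7 of the 19 were lower and 3 higher, against the 40.9% of all tested genes that passed in either direction. Mgst1 (Rn5 chr4:236372225-236387452), a membrane enzyme of the endoplasmic reticulum and outer mitochondrial membrane, ranged from 94.5 to 162 FPKM (median 116) with Ad-GFP and from 48.7 to 70.7 FPKM (median 50.3) with Ad-h-NR4A2. Gsta1 (Rn5 chr9:26283550-26300195), a cytosolic alpha-class enzyme, ranged from 166 to 231 FPKM (median 199) and from 81.9 to 138 FPKM (median 98.1). In both genes every Ad-h-NR4A2 sample was below every Ad-GFP sample, with log2 fold changes of -1.11 (SE 0.12, adjusted p = 9.58e-06 in limma) for Mgst1 and -0.94 (SE 0.14, adjusted p = 1.11e-04) for Gsta1. Gsta1 was the only differentially expressed gene among the 25 of the families with a mean of at least 100 FPKM. Gstm1, of the mu class, had 54.7 to 77.7 FPKM (median 62.9) and 28.4 to 55.3 FPKM (median 39.0), with an overlap of 1 sample, and its log2 fold change was -0.71 (SE 0.14, adjusted p = 9.78e-04).

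Several relatives were lower in 6 of 6 pairs without reaching 1.5-fold. Gsta4, which conjugates the lipid aldehyde hydroxynonenal, had 85.9 to 94.5 FPKM (median 92.5) against 56.1 to 71.8 FPKM (median 64.6), without overlap (log2 fold change -0.50, SE 0.05, adjusted p = 7.41e-06 in limma). Gstp1, of the pi class, had 286 ± 45.8 and 209 ± 32.9 FPKM (SD, n = 6, log2 fold change -0.45, adjusted p = 0.0106), and Gstm2 had 352 ± 45.4 and 260 ± 32.1 FPKM (log2 fold change -0.44, adjusted p = 0.00225). Gsta5 had 2.86 to 9.81 FPKM and 2.00 to 7.43 FPKM and was lower in 6 of 6 pairs, which did not pass the test in the unpaired fit (adjusted p = 0.0912) but passed it with the sample number as a block (log2 fold change -0.77, SE 0.18, adjusted p = 0.00463). Alpha-class genes are close in sequence, and fragments of Gsta2 and Gsta5 may be divided between them. Mgst3, the most abundant transferase, had 389 ± 48.9 and 370 ± 52.3 FPKM (SD, n = 6), a difference within the spread of the samples (log2 fold change -0.07, 95% interval -0.28 to 0.14).

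The transferases that rose were Gstt3 and Mgst2. Gstt3 (Rn5 chr20:16007776-16015160), of the theta class, had 0.406 to 2.00 FPKM (median 1.01) with Ad-GFP and 1.43 to 4.04 FPKM (median 3.34) with Ad-h-NR4A2 (log2 fold change 1.43, SE 0.33, adjusted p = 0.0035 in limma). Mgst2 (Rn5 chr2:160180714-160202851), which can also make leukotriene from its precursor and glutathione, had 7.90 to 26.7 FPKM (median 10.0) and 10.8 to 52.6 FPKM (median 21.7) (log2 fold change 1.11, SE 0.37, adjusted p = 0.0273). Each was higher in 6 of 6 pairs, with overlapping groups. The call of Mgst2 was lost without Ad-GFP sample 24, 25, or 28 or Ad-h-NR4A2 sample 27 or 29 (adjusted p 0.0558 to 0.0632).

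Both subunits of the enzyme that starts glutathione synthesis were lower by small amounts. The catalytic subunit of glutamate-cysteine ligase, Gclc, had 36.4 to 44.0 FPKM (median 40.4) and 29.9 to 37.1 FPKM (median 31.5), and the modifier subunit Gclm 66.9 to 93.8 FPKM (median 77.1) and 55.4 to 78.5 FPKM (median 64.8). Both were lower in 6 of 6 pairs, with log2 fold changes of -0.34 (adjusted p = 5.41e-04 in limma) and -0.25 (adjusted p = 0.0477), below the fold limit.

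Glucuronidation and sulfation genes were near the limit of measurement. Among 18 Ugt genes, 8 were tested, and these are Ugt1a genes whose rows share 1 locus (Rn5 chr9:94880265-94990037). Single rows carry values as low as 9.49e-23 FPKM in some samples, so they passed the filter in name only and none was differentially expressed. The sum of the 9 rows of the locus, formed after seeing the data, was 1.31 ± 0.195 and 1.73 ± 0.189 FPKM in Ad-GFP and Ad-h-NR4A2 samples (SD, n = 6), higher in 6 of 6 pairs (two-sided exact permutation p = 0.00649). Of the 14 Sult genes, 5 were at 0 in all samples and none could be tested, Sult1a1 reaching at most 0.101 FPKM.

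Some genes could not be tested because 1 or more Ad-GFP samples were at 0. They are described here after their values were seen. Gpx2, a glutathione peroxidase of epithelia, was above 0 in 1 of 6 Ad-GFP samples (0 to 1 fragments) and in 5 of 6 Ad-h-NR4A2 samples (up to 37 fragments, 1.89 FPKM). Cyp7b1, an oxysterol hydroxylase, had 0 to 5 fragments against 7 to 92, and Gstt4 0 to 4 against 8 to 14, both without overlap. Sult1e1, the estrogen sulfotransferase, was listed at 0 in all Ad-GFP samples and had up to 8 fragments in 5 of the Ad-h-NR4A2 samples. Others went the opposite way with fewer fragments. Cyp2b1 was above 0 in 4 of 6 Ad-GFP samples (up to 2 fragments) and in none with Ad-h-NR4A2, Cyp7a1 in 4 against 1 (up to 3 fragments), and Gstm3 in 3 against 0. All these levels were low, and the highest mean of any untested gene was 0.355 FPKM.

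The abundant antioxidant enzymes were close between the groups. The 8 most abundant genes of the families were Sod1 (940 FPKM on average over the 12 samples), Prdx6 (857), Prdx1 (791), Sod2 (784), Txn1 (759), Prdx2 (732), Gpx1 (722), and Gpx4 (643), and none was differentially expressed. Sod1, the cytosolic superoxide dismutase, had 926 ± 32.9 and 953 ± 54.7 FPKM (SD, n = 6), with a 95% interval of -0.06 to 0.13 for its log2 fold change. Sod2, the mitochondrial form, had 752 ± 59.1 and 816 ± 93.5 FPKM (interval -0.05 to 0.28, adjusted p = 0.00753 with the block), and Sod3, which is secreted, 1.55 ± 0.797 and 1.18 ± 0.293 FPKM (interval -0.84 to 0.28). The intervals of Sod1 and Sod2 are narrow, whereas that of Sod3 is wide. Catalase was the exception. Cat had 383 to 517 FPKM (median 438) with Ad-GFP and 276 to 382 FPKM (median 298) with Ad-h-NR4A2, lower in 6 of 6 pairs and without overlap (log2 fold change -0.49, SE 0.10, adjusted p = 0.00176 in limma), a 1.40-fold difference and so below the fold limit.

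Glutathione peroxidases and peroxiredoxins gave small differences. Gpx1, in cytosol and mitochondria, had 754 ± 99.7 and 690 ± 94.0 FPKM (SD, n = 6, adjusted p = 0.362), and Gpx4, which reduces lipid peroxides, 666 ± 35.5 and 619 ± 37.5 FPKM (adjusted p = 0.109), each lower in 6 of 6 pairs and passing with the block (adjusted p = 0.00287 and 0.00453). Gpx3, the plasma form, varied from 2.34 to 8.88 FPKM over all samples (adjusted p = 0.298, but 0.0113 with the block). Of the peroxiredoxins, Prdx1 was higher (753 ± 51.1 and 828 ± 37.2 FPKM, log2 fold change 0.14, adjusted p = 0.0391) and Prdx2 lower (769 ± 30.5 and 695 ± 46.4 FPKM, log2 fold change -0.15, adjusted p = 0.0246), differences that are small beside their levels. Prdx3 to Prdx6 had log2 fold changes from -0.07 to 0.08 and did not pass the unpaired test, while Prdx6 passed with the block (adjusted p = 0.0414).

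Srxn1, which restores overoxidized peroxiredoxins and is a known NRF2 target, was the 1 gene of its group to be downregulated. Srxn1 (Rn5 chr3:153957677-153963237) had 71.4 to 136 FPKM (median 113) in Ad-GFP samples and 45.3 to 92.9 FPKM (median 58.9) in Ad-h-NR4A2 samples. The ranges overlapped, but each Ad-h-NR4A2 sample was below its Ad-GFP partner (log2 fold change -0.73, SE 0.19, adjusted p = 0.00779 in limma).

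**Figure D4:**
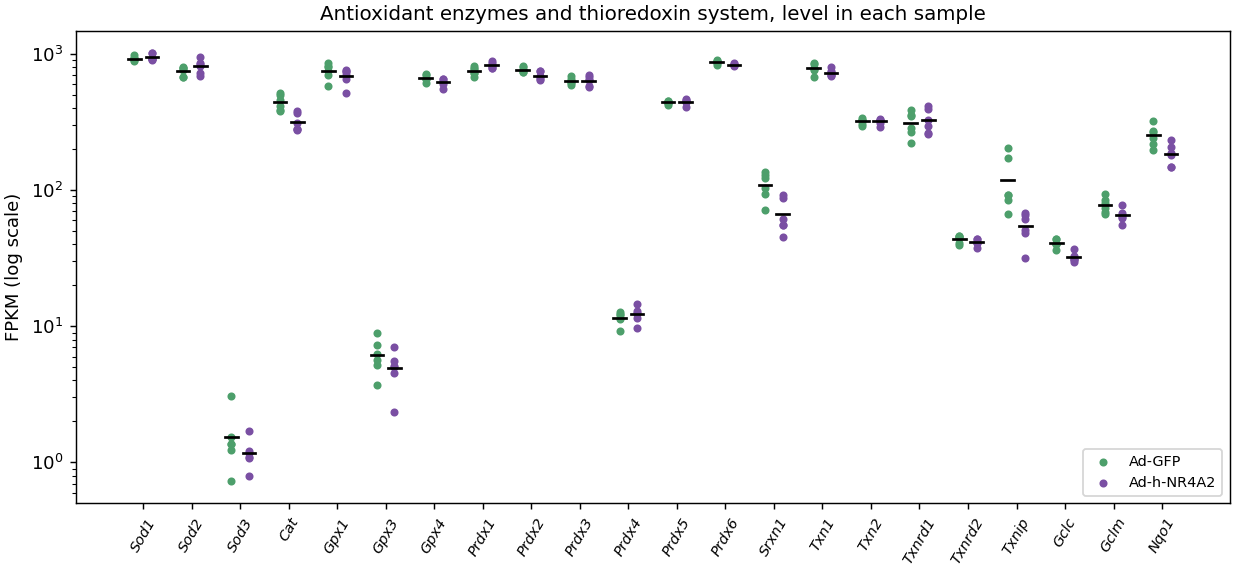
FPKM on a log scale (vertical axis) of 22 antioxidant, thioredoxin, and glutathione synthesis genes, with 1 green point per Ad-GFP sample, 1 purple point per Ad-h-NR4A2 sample, and black bars for the mean of 6. The groups lie close together in Sod1, Gpx4, and Prdx1 to Prdx6, while Cat, Srxn1, and Txnip sit lower with Ad-h-NR4A2.

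The inhibitor of thioredoxin was downregulated, and thioredoxin itself was not. Txn1 had 788 ± 67.0 and 730 ± 44.7 FPKM (SD, n = 6, adjusted p = 0.173, but 0.0146 with the block) and the mitochondrial Txn2 had 320 ± 16.0 and 320 ± 15.7 (95% interval -0.10 to 0.09). The reductases Txnrd1, at 311 ± 63.5 and 326 ± 67.3 FPKM, and Txnrd2, at 44.0 ± 2.83 and 41.6 ± 2.40, did not pass the test (adjusted p = 0.752 and 0.241, and 0.0474 with the block for Txnrd2), whereas Txnrd3 was higher without overlap (14.2 ± 0.579 and 17.0 ± 1.20 FPKM, log2 fold change 0.25, adjusted p = 0.0027). Txnip (Rn5 chr2:218170102-218173902), which binds and inhibits thioredoxin and responds to glucose, had 66.8 to 203 FPKM (median 92.2) with Ad-GFP and 32.0 to 68.5 FPKM (median 56.4) with Ad-h-NR4A2. It fell in 6 of 6 pairs (log2 fold change -1.04, SE 0.27, adjusted p = 0.00675), with the groups touching at their edges. Txndc11 (Rn5 chr10:3408243-3473936), a thioredoxin-domain protein of the endoplasmic reticulum, had 9.38 to 12.6 FPKM (median 10.8) and 16.8 to 21.0 FPKM (median 18.8), and was upregulated without overlap (log2 fold change 0.79, SE 0.08, adjusted p = 3.85e-06). Its locus overlaps that of Snn. Txndc5, another protein of that compartment, and Txnl1, a proteasome-associated thioredoxin-like protein, were higher without overlap but below the fold limit, at log2 fold changes of 0.40 (adjusted p = 3.63e-05) and 0.31 (adjusted p = 1.93e-05). In contrast, Txndc12 was lower without overlap, in 6 of 6 pairs and below the fold limit (89.7 ± 5.02 and 76.0 ± 5.04 FPKM, log2 fold change -0.24, adjusted p = 0.00208 in limma).

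The genes that work beside these enzymes are given from lists drawn up with earlier results of these data known, so their counts are descriptions. NRF2 and glutathione partners numbered 26, of which 25 were tested. Of these 9 were downregulated, 1 was upregulated, and 15 were not differentially expressed. Among all tested genes, 7.24% were downregulated and 7.94% upregulated. The median log2 fold change of the 25 was -0.31, beside -0.02 for all tested genes. Hmox1, the inducible heme oxygenase, averaged 310 ± 57.0 and 111 ± 27.4 FPKM in Ad-GFP and Ad-h-NR4A2 samples (SD, n = 6, log2 fold change -1.49, adjusted p = 7.24e-06 in limma). The next largest falls were in Abcc1, which exports glutathione conjugates (log2 fold change -1.30), Osgin1, an oxidative stress-induced gene (-1.28), and Ftl1, the ferritin light chain (-1.16). Gsr, the reductase of oxidized glutathione, fell from 40.6 ± 7.21 to 24.6 ± 5.77 FPKM (log2 fold change -0.73, adjusted p = 0.00156), and Glrx, Mafk, Tkt, and Bach1 had log2 fold changes from -0.70 to -0.64. Abcc4, an exporter of cyclic nucleotides and organic anions, was the 1 upregulated gene, from 16.6 ± 3.28 to 38.1 ± 4.20 FPKM (log2 fold change 1.21, adjusted p = 2.75e-06). Without the fold limit, 12 of the 25 were lower and 3 higher, against 40.9% of all tested genes in either direction. Among the higher ones was Glrx2 (28.1 ± 1.62 and 31.4 ± 1.53 FPKM, log2 fold change 0.16, adjusted p = 0.0185 in limma). The mRNA of NRF2 itself, Nfe2l2, and of its repressor Keap1 did not pass the unpaired test (log2 fold changes -0.15 and -0.17, adjusted p = 0.0941 and 0.147), but both were lower in 6 of 6 pairs and passed with the block (adjusted p = 0.00406 and 0.00119).

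**Figure D5:**
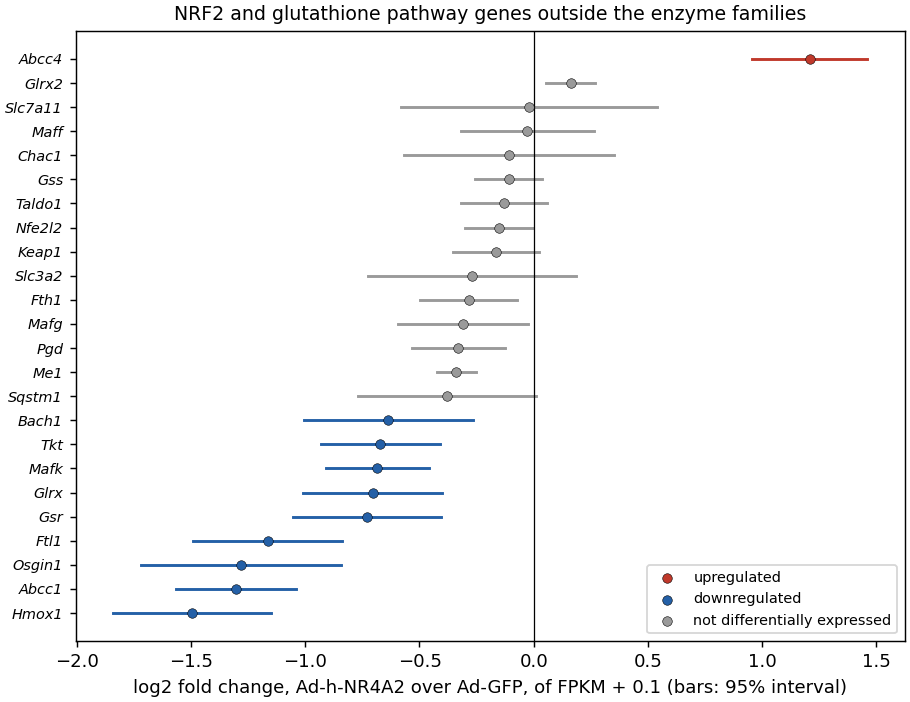
Log2 fold change of FPKM + 0.1 (Ad-h-NR4A2 over Ad-GFP) of 24 of the 25 tested NRF2 and glutathione partner genes, with bars for the 95% interval and colors for upregulated (red), downregulated (blue), and other genes (gray). Hmox1 is lowest at -1.49, Abcc4 highest at 1.21, and the interval of Keap1 crosses 0.

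Xenobiotic sensors and partners of P450s numbered 22, with 19 tested, 1 upregulated, and 1 downregulated. The shares among all tested genes were 7.94% and 7.24%. Cyb5b, an electron donor of the outer mitochondrial membrane, fell from 87.6 ± 6.95 to 42.8 ± 4.96 FPKM (SD, n = 6, log2 fold change -1.04, adjusted p = 2.45e-07 in limma). Papss2, which makes the sulfate donor of the sulfotransferases, rose from 0.0717 ± 0.0412 to 0.385 ± 0.178 FPKM (log2 fold change 1.45, adjusted p = 1.96e-04). Por, the reductase that feeds electrons to microsomal P450s, had 56.9 ± 11.5 and 42.8 ± 7.30 FPKM, below the fold limit (adjusted p = 0.0299). Without the fold limit, 8 of the 19 were lower and 3 higher, against 40.9% of all tested genes in either direction. Rxra, Nr3c1, and Arnt were lower without overlap but below the fold limit (log2 fold changes -0.56, -0.30, and -0.28, adjusted p = 4.11e-04, 0.00186, and 0.00211 in limma). The xenobiotic receptors Nr1i2 and Nr1i3 and the liver factor Hnf4a were too low to be tested.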

How the data were processed

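The 12 ARVM samples were sequenced as stranded mRNA libraries in 1 pooled paired-end run. The authors used STAR to align the reads to Rn5 and Cufflinks to quantify RefSeq transcripts, and the deposited values are FPKM, that is, fragments scaled to transcript length and to the mapped fragments of each sample. Groups come from the sample labels. The genes and lists were chosen with earlier results of these data known.

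Where a gene name had several rows, the row with the highest mean FPKM was used. Testing was limited to the 10950 genes above 0 in all 12 samples, with limma 3.58.1 (lmFit, eBayes with trend, R 4.3.3) on log2(FPKM + 0.1), two-sided, unpaired, and with Benjamini-Hochberg adjustment. Differential expression required an adjusted p below 0.05 together with group means at least 1.5-fold apart. Fold changes on this scale understate those of low genes. Exact permutation tests (two-sided, 924 splits) were added for Ephx1 and Ugt1a. The fit was tested on simulated data. Python 3.11.15 was used for tables (pandas 2.3.3, NumPy 2.4.6), permutations (SciPy 1.17.1), and plots (Matplotlib 3.10.9).

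Low FPKM were whole multiples of 1 fragment in 99.2% to 99.8% of values up to 6 fragments (within 0.05) after 156 to 166 bases were taken off the transcript length, which gave the depth. Fragment numbers cover counting error only.

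According to the paper, replicates were separate experiments, each with cells of another rat. Deviations from the group means correlated at 0.347 to 0.623 in same-numbered samples and at most 0.189 otherwise, so equal numbers were taken as pairs.

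Named are all differentially expressed genes of the families, a set list of well-known members, the 8 most abundant, and genes of the partner lists that passed. Others are named where their groups did not overlap or a call depended on the fit, chosen after their values were seen. In the partner lists, 1 gene is counted but not reported here by itself. Promoter sequences are from RefSeq (GRCr8), and locus coordinates from the files (Rn5). Alternatives were other pseudocounts, filters, fold limits, and scalings, the replicate block, other handling of transcripts, limma without trend, and each sample left out.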

Additional observations from a re-analysis of the deposited data

Results flagged for a closer look

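Within a group, 1 sample lay far from the other 5 in 8 cases. Of the 110 groups examined, chance was taken to give such a sample in about 1 of 20. The groups come from the same 12 samples and are not independent, so whether 8 exceeds chance was not tested. In 3 cases these were Ad-GFP samples that pulled a group toward the other. Mgst2 was 26.7 FPKM in Ad-GFP sample 29, well inside the range of the Ad-h-NR4A2 samples. The same-numbered Ad-h-NR4A2 sample was also the highest of its group, at 52.6 FPKM. Cyp2e1 was 0.783 FPKM in Ad-GFP sample 28, the only sample through which its groups overlap, and Cyp2j4 was 1.01 FPKM in Ad-GFP sample 26, below the others of its group. In the Ad-h-NR4A2 group, Aldh1a2 was 4.41 FPKM in sample 29 and Cyp4v3 was 2.86 FPKM in sample 28, each on the side away from the Ad-GFP samples. A further 3 genes that were not differentially expressed had such a sample as well, Akr1b1 with 635.6 FPKM in Ad-GFP sample 28, Sod3 with 3.07 FPKM in Ad-GFP sample 29, and Mgst3 with 467.8 FPKM in Ad-h-NR4A2 sample 25.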

How the results depend on the processing

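Under quantile normalization, the TPM scale, a limma fit with no trend, pseudocounts of 1 and 0.01, summed transcripts, rows fitted one by one, and values below 1e-06 set to 0 (the last chosen after seeing the data), the same 20 genes of the families were differentially expressed. The last setting could not affect Ephx1, whose lowest value in row NM_012844 was 2.75e-05 FPKM. The filter and the fold limit mattered more. With no fold limit 49 passed (22 higher, 27 lower) and 4484 of all genes, with a fold limit of 2, 12 (5 lower) and 803 of all genes. With no filter on low values 28 passed, 15 of them higher, the additions being Akr1c2, Cyp2b1, Cyp7b1, Gpx2, Gstt4, Sult1b1, Sult1e1, and Sult5a1. With a mean of at least 1 FPKM, 15 remained. Leaving out gene names with several transcripts removed Ephx1. The replicate block gave 21 (8 higher, 13 lower), adding Gsta5, and changed no other call of the families. With the replicate block and no fold limit, 45 were lower instead of 27. It left Ephx1 row NM_001034090 at an adjusted p of 0.0501. Leaving out each sample in turn gave 18 to 24 genes of the families (7 to 10 higher, 11 to 14 lower) and 1542 to 1769 of all genes, with log2 fold changes of 5.99 to 6.59 for Ephx1 row NM_012844 and 0.22 to 0.52 for NM_001034090. With pseudocounts of 1 and 0.01, NM_012844 had 4.26 and 7.61. Of the 50 genes of the families other than Ephx1 for which each alternative was computed, none that passed the test changed direction. With a pseudocount of 1, the log2 fold changes of low genes shrank by more than 1.5 times, as in Aldh1a2 (1.20), Aldh3a1 (-0.84), and Cyp2e1 (0.58). Depth limits the genes with few fragments, such as Cyp4b1, and most P450 and sulfotransferase genes could not be assessed.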

Other observations

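Csf1r and Cd14, markers of macrophages, rose with Ad-h-NR4A2 while Cd68, Lyz2, and Adgre1 did not pass the test and Ptprc could not be tested. Csf1r, the receptor of a macrophage growth factor, averaged 10.1 ± 3.87 FPKM in Ad-GFP samples and 40.2 ± 2.35 in Ad-h-NR4A2 samples (SD, n = 6, log2 fold change 2.06, adjusted p = 2.15e-06 in limma). Cd14, a coreceptor for bacterial lipopolysaccharide, averaged 0.222 ± 0.150 and 1.19 ± 0.587 FPKM (log2 fold change 1.99, adjusted p = 4.93e-04). Each was higher in 6 of 6 pairs without overlap, and Lyz2, at 1.69 ± 0.960 and 1.59 ± 1.74 FPKM, did not pass (adjusted p = 0.475). Among mitochondrial partners of P450s, Fdx1, the ferredoxin that feeds electrons to them, was higher without overlap but below the fold limit (57.5 ± 4.07 and 82.9 ± 9.88 FPKM, log2 fold change 0.52, adjusted p = 9.62e-05), while the reductase Fdxr was 4.11 ± 0.414 and 4.27 ± 0.639 FPKM (adjusted p = 0.764). The mitochondrial P450 Cyp11a1, which receives electrons from this chain, had 3.41 ± 1.07 and 2.76 ± 0.861 FPKM (adjusted p = 0.413, but 0.0329 with the sample number as a block).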
